A study of Mus musculus with 10 samples.

Results

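The genes described here are the liver hormone hepcidin (Hamp), the siderophore-binding protein lipocalin 2 (Lcn2) and 5 genes of iron transport, storage and release: transferrin (Trf), transferrin receptor 1 (Tfrc), ferritin heavy chain (Fth1), heme oxygenase 1 (Hmox1) and ceruloplasmin (Cp). They were chosen by name, and each was read from the probe sets that the platform annotation assigns to that single gene, with the probe set of highest mean over the 10 arrays taken as the gene's level. Of the 7 genes, 6 were measured, by 9 probe sets, among 8251 genes with a probe set of their own; Trf has none in the annotation used and is not analysed here. Liver RNA was hybridised to Affymetrix GeneChip MG_U74Av2 arrays, in a study whose title gives its aim as finding direct targets of the sterol regulatory element-binding proteins (SREBPs), the transcription factors of lipid synthesis.

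All mice were male, and the arrays came in 2 sets. In the transgenic set, TgSREBP-1a and TgSREBP-2 mice overexpressed the active nuclear form of human SREBP-1a or SREBP-2, and their controls were wild type littermates. These 3 groups were 12 to 16 weeks old and had spent 2 weeks on a diet high in protein and low in carbohydrate (the high-protein diet below), which the labels give as the means of driving the transgenes, so the wild type controls ate it too. In the Scap set, Scap-/- mice carried MX1-Cre, which interferon also switches on outside hepatocytes, and lacked in liver SCAP, the escort protein that SREBPs need for activation. Knockouts and controls alike were 10 to 12 weeks old, ate Teklad chow and had received 4 injections of polyinosinic-polycytidylic acid, a mimic of viral RNA that switches on the Cre recombinase, with livers taken 14 days after the last injection. RNA of 5 mice a group was pooled in equal aliquots to a total of 20 µg, with 2 arrays per pool. The p-values below therefore compare 5 pools over the spread between hybridisations and hold no error between mice.

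Iron leaves cells through the exporter ferroportin, and hepcidin, a peptide hormone made by hepatocytes, closes that exit by binding ferroportin and sending it for degradation. Hepcidin transcription is driven by iron loading through bone morphogenetic protein 6 (BMP6) and SMAD proteins, and by inflammation through interleukin 6 and STAT3. Lipocalin 2 binds the iron-carrying siderophores of bacteria and is made by hepatocytes in the acute phase response and by neutrophils. Transferrin receptor 1 imports transferrin-bound iron, ferritin stores it, heme oxygenase 1 frees it from heme and ceruloplasmin oxidises it for loading onto transferrin. Tfrc and Fth1 are controlled largely after transcription, through iron regulatory proteins that bind their mRNAs.

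Values are log2 signals, on which 1 unit is a doubling. Array medians ran from 6.37 to 6.40, and duplicates correlated at 0.992 to 0.998 over genes. Duplicates lay 1.5-fold or more apart for 151 genes in TgSREBP-1a, for 55 in TgSREBP-2 and for 101 in their wild type controls, against 6 in Scap-/- and 0 in chow-fed wild type, and none of the 6 measured iron genes was among them. A gene was called changed when limma's adjusted p was under 0.05 and the difference was at least 1.5-fold. The error after a log2 difference is its moderated standard error in limma, from n = 2 arrays per pool. In RNA of whole liver, fewer cells of a type and less RNA per cell cannot be told apart.

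The upstream sequence of the hepcidin gene is shown because both of its known inputs have short recognition letters there, and that of Lcn2, the gene with the widest range here, is set beside it. Each is the stretch of 250 bases before the RefSeq transcript start, 5′ to 3′ on the gene's own strand, in build GRCm38.p6. Hamp lies on the minus strand at chr7:30944030-30944279 and Lcn2 on the minus strand at chr2:32387740-32387989. In Hamp the capitals mark GGCGCC, the core of the BMP-responsive element, and TTCTTGGAA, a match to the STAT letters TTCNNNGAA. In Lcn2 they mark TTGCTCAA, which is a match on the opposite strand to the C/EBP letters TTNNGNAA.
Hamp: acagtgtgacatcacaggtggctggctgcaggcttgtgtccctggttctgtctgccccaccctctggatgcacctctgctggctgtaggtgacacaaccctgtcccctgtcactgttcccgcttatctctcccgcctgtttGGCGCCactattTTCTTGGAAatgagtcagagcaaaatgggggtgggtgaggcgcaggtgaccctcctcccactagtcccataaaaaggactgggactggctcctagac
Lcn2: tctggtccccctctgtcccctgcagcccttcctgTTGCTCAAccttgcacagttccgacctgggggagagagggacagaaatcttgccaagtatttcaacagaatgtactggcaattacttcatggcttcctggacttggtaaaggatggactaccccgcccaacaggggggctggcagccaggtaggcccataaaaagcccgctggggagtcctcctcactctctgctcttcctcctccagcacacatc
The Hamp letters GGCGCC end 104 bases and the STAT letters end 89 bases before the start. The Lcn2 match begins 216 bases before the start. Searched on both strands of 32851 windows of the same length, GGCGCC was present in 9.59%, TTCNNNGAA in 7.02% and TTNNGNAA in 36.8%. GGCGCC and the STAT letters occurred together in 0.368% of windows. For SREBPs a single pattern was searched, the sterol regulatory element TCACNCCAC, and other SREBP sites were not. It occurred in 1.05% of windows and in none of the 8 windows of the 5 iron genes that had any (Cp, Fth1, Hamp, Lcn2 and Tfrc). GGCGCC was also found in 1 of the Tfrc windows, and the C/EBP letters in windows of Cp and Fth1. The NF-kappa-B site occurred in 7.25% of windows and in none of those 8. A match is only a match of letters, and its absence refers to these windows alone.

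Of the 6 measured genes, Hamp was the 1 called in opposite directions in the 2 transgenic pools, higher than wild type in TgSREBP-1a and lower in TgSREBP-2. Its log2 signal was 10.93 and 11.12 on the TgSREBP-1a arrays, against 10.11 and 10.13 on the wild type arrays of that diet. The groups did not overlap, and Hamp rose by 0.91 ± 0.08 log2 units, or 1.88-fold (95% interval 1.65 to 2.13, adjusted p = 2.81e-05). In TgSREBP-2 it was 9.04 and 9.0, the lowest values of any pool, and it fell by 1.10 ± 0.08 against that same wild type pool (2.14-fold lower, interval 1.89 to 2.43, adjusted p = 2.26e-05). Set directly against each other, Hamp was 4.02-fold higher in TgSREBP-1a than in TgSREBP-2 (2.01 ± 0.08, interval 3.54 to 4.57, adjusted p = 1.09e-07). Both differences from wild type rest on the same control pool.

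In the Scap set Hamp was not called. The 2 Scap-/- arrays gave 10.75 and 10.79, against 11.08 and 11.07 in chow-fed wild type. The arrays did not overlap, but the difference of -0.30 ± 0.08 was not called (adjusted p = 0.119), with a 95% interval of -0.49 to -0.12 that lies wholly short of 1.5-fold. Between the 2 wild type pools, Hamp was 1.94-fold lower on the high-protein diet than on chow (-0.96 ± 0.08, adjusted p = 4.86e-05). Those pools differ in diet, age, injections and set together, which cannot be told apart.

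The 5 pool means of Hamp thus ordered chow-fed wild type (11.08), TgSREBP-1a (11.03), Scap-/- (10.77), wild type fed the high-protein diet (10.12) and TgSREBP-2 (9.02). Only the upper 2 of these overlapped in their arrays. The span of 2.06 log2 units was exceeded by 113 of the 8251 genes, or 1.37%, and the median gene spanned 0.298. Hamp has 1 probe set, and RefSeq lists a close mouse copy, Hamp2, for which the annotation names no probe set. Whether the Hamp probe set also detects Hamp2 was not tested.

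**Figure D1:**
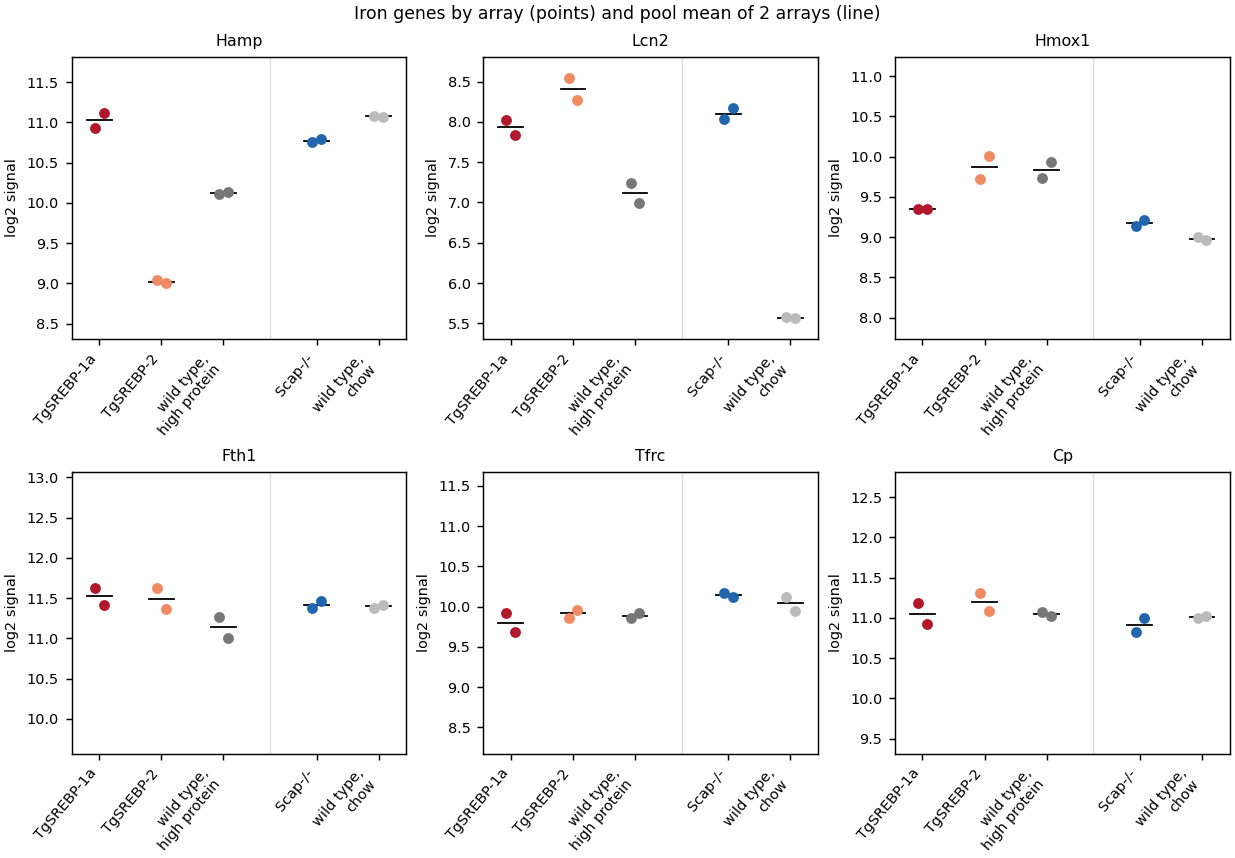
Log2 signal (y axis, all panels of equal height) of the 6 measured iron genes on each array (points) with the pool mean of 2 arrays (line), with the transgenic set on the left and the Scap set on the right of each panel. Hamp lay lowest in TgSREBP-2 at 9.0 and 9.04 and Lcn2 lowest in chow-fed wild type at 5.56 and 5.58, while Tfrc and Cp lay in narrow bands.

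Lcn2 was higher in all 3 engineered livers than in the matching wild type pool. The TgSREBP-1a arrays gave 8.02 and 7.84, against 7.24 and 6.99 in wild type on the same diet, a rise of 0.82 ± 0.12 or 1.76-fold (interval 1.46 to 2.12, adjusted p = 0.00092). The TgSREBP-2 arrays gave 8.55 and 8.27, a rise over that wild type pool of 1.29 ± 0.12 or 2.45-fold (interval 2.04 to 2.95, adjusted p = 0.000113). In Scap-/- livers the signal was 8.04 and 8.17, against 5.58 and 5.56 in chow-fed wild type. That rise of 2.53 ± 0.12, or 5.79-fold (interval 4.81 to 6.97, adjusted p = 8.35e-07), was, by the brightest probe set of each gene, the largest difference of any of the 6 genes in the 5 comparisons. No array of an engineered pool overlapped its wild type pool. TgSREBP-1a differed from TgSREBP-2 by -0.48 ± 0.12, which has an adjusted p of 0.0273 but is short of 1.5-fold (1.39-fold).

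The wild type levels of Lcn2 were themselves far apart. Lcn2 was 2.92-fold higher in wild type fed the high-protein diet than on chow (1.55 ± 0.12, interval 2.43 to 3.52, adjusted p = 2.26e-05), and the chow-fed pool lay below the median of its arrays. The order of the pool means was TgSREBP-2 (8.41), Scap-/- (8.10), TgSREBP-1a (7.93), wild type fed the high-protein diet (7.12) and chow-fed wild type (5.57), with no overlap between neighbours. The TgSREBP-1a and Scap-/- pools were not compared by a test because they belong to different sets. Its span of 2.84 was exceeded by 55 of the 8251 genes, or 0.667%.

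The second Lcn2 probe set did not follow the first. It read between 5.96 and 6.41 on all 10 arrays, and its differences from the matching wild type pools were -0.11 ± 0.11 (TgSREBP-1a), -0.07 ± 0.11 (TgSREBP-2) and -0.10 ± 0.11 (Scap-/-), none called. In the comparison of wild type pools it differed by 0.16 ± 0.11. The 95% interval for Scap-/-, -0.34 to 0.15, does not reach the rise read by the brighter probe set. The Lcn2 results therefore rest on 1 probe set. With the probe sets of each gene averaged, the Lcn2 difference in TgSREBP-1a was 0.35 (adjusted p = 0.0305), short of 1.5-fold. By that average it was 0.61 in TgSREBP-2, 1.22 in Scap-/- and 0.85 between the wild type pools, all called, and the largest difference of the 6 genes was then that of Hamp between the transgenic pools (2.01). Which transcripts each set detects was not tested.

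**Figure D2:**
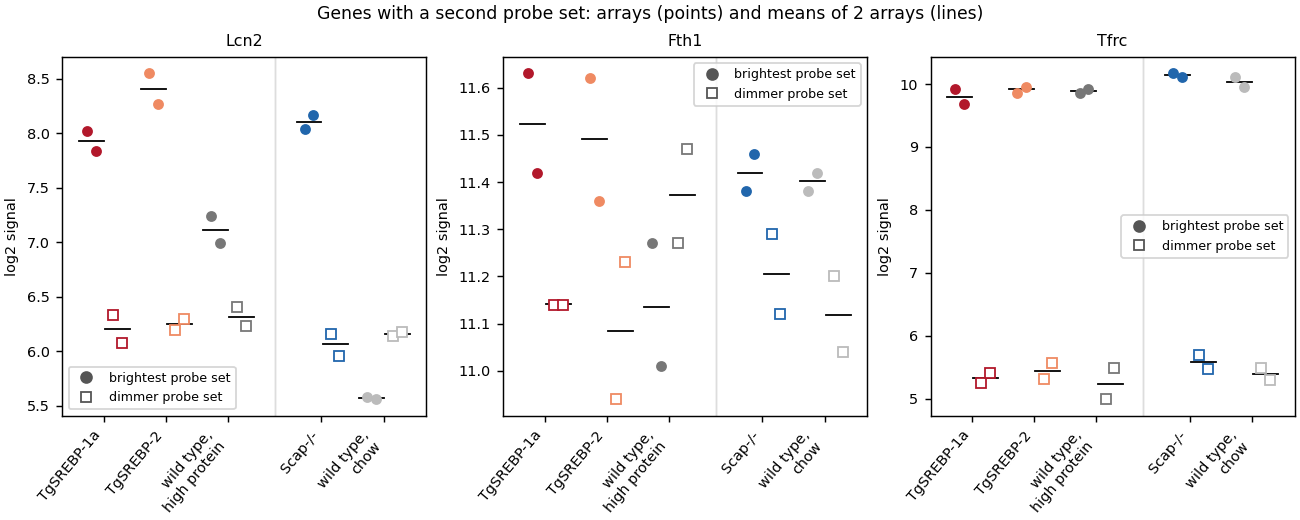
Log2 signal of the 3 iron genes with a further probe set, by pool, for the probe set of highest mean (circles) and the other one (squares); points are arrays, lines are means of 2 arrays, and the y axes differ. For Lcn2 the circles run from 5.56 to 8.55 while the squares stay between 5.96 and 6.41, and for Fth1 the high-protein wild type pool is the lowest of the transgenic set on circles and the highest on squares.

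Read against the whole array, 2 of the 6 measured genes were called higher and none lower in TgSREBP-1a, where 4.78% of the 8251 genes were called higher, 2.59% lower and 7.37% either way. In TgSREBP-2, 1 was called higher and 1 lower, where 2.18% of all genes were called higher and 0.388% lower. In Scap-/-, Lcn2 alone was called, where 0.739% of all genes were called higher and 0.921% lower. Between the transgenic pools Hamp alone was called, where 2.24% of all genes were higher in TgSREBP-1a and 2.95% lower. Between the wild type pools Lcn2 and Hmox1 were higher and Hamp lower on the high-protein diet, where 1.28% of genes were higher and 4.34% lower. Called genes made up 2.57% of all genes in TgSREBP-2, 1.66% in Scap-/-, 5.19% between the transgenic pools and 5.62% between the wild type pools, counted either way. Arrays that merely did not overlap were common, at 51.6%, 43.8%, 43.7%, 44.7% and 66% of all genes in the 5 comparisons in that order, so the 4, 4, 3, 3 and 5 iron genes without overlap are no result of their own. An adjusted p under 0.05 with no limit on fold was held by 16.6%, 5.05%, 2.84%, 11% and 22.7% of all genes, and by 4, 2, 1, 3 and 3 of the 6 iron genes. The median of all genes moved by 0.03 or less in each comparison.

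**Figure D3:**
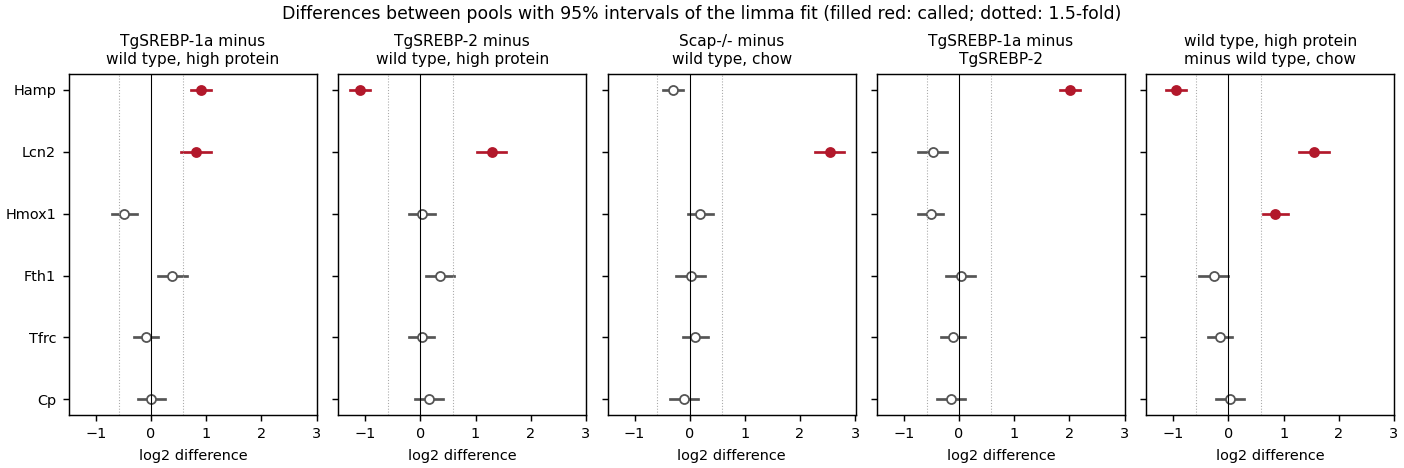
Log2 difference between pools (x axis) of the 6 measured iron genes in the 5 comparisons, with 95% intervals of the limma fit; filled red points were called and dotted lines mark 1.5-fold. Hamp stands at 0.91 (TgSREBP-1a) and -1.10 (TgSREBP-2), while Lcn2 stands to the right of 0 in all 3 comparisons with wild type.

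Heme oxygenase 1 did not separate the engineered livers from wild type by 1.5-fold. Its signal was 9.35 on both TgSREBP-1a arrays, against 9.74 and 9.93 in wild type on that diet, a difference of -0.48 ± 0.10 (adjusted p = 0.00972) that was 1.40-fold. The TgSREBP-2 arrays, at 9.72 and 10.01, overlapped wild type (0.03 ± 0.10). TgSREBP-1a lay below TgSREBP-2 by a similar margin (-0.52 ± 0.10, 1.43-fold, adjusted p = 0.009). Scap-/- arrays gave 9.14 and 9.21, against 9.0 and 8.96 in chow-fed wild type, a difference of 0.19 ± 0.10 with an interval of -0.04 to 0.43. Hmox1 was 1.80-fold higher in wild type fed the high-protein diet than in chow-fed wild type (0.85 ± 0.10, adjusted p = 0.000498). Hmox1 spanned 0.89 log2 units over the 5 pools.

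Fth1, the storage subunit, was bright in every pool, from 11.01 to 11.63. The TgSREBP-1a arrays gave 11.63 and 11.42 and the TgSREBP-2 arrays 11.62 and 11.36, against 11.27 and 11.01 on the arrays of their wild type controls; both transgenic pools lay above wild type. The difference was 0.39 ± 0.12 in TgSREBP-1a (adjusted p = 0.0492, 1.31-fold) and 0.36 ± 0.12 in TgSREBP-2 (adjusted p = 0.137). The second Fth1 probe set, nearly as bright, pointed the other way, at -0.23 ± 0.12 in TgSREBP-1a and -0.29 ± 0.12 in TgSREBP-2, neither called. On the first probe set Scap-/- gave 11.38 and 11.46, against 11.38 and 11.42 in chow-fed wild type (0.02 ± 0.12, interval -0.25 to 0.28). Ferritin heavy chain has many processed copies in the mouse genome, and what the probe sets share with them was not tested.

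Tfrc, the importer, was not called in any comparison. The TgSREBP-1a arrays gave 9.92 and 9.68 and the TgSREBP-2 arrays 9.86 and 9.96, against 9.86 and 9.92 for their wild type controls, so all 3 groups overlapped. Scap-/- arrays gave 10.17 and 10.12, against 10.12 and 9.95 in chow-fed wild type. The 95% intervals against wild type were -0.31 to 0.14 (TgSREBP-1a), -0.20 to 0.25 (TgSREBP-2) and -0.12 to 0.33 (Scap-/-), all short of 1.5-fold. The dimmer Tfrc probe set, at 4.99 to 5.69, was not called either. A further 3 probe sets built from the mouse transferrin receptor are platform controls, which were left out of the fit, and they read 4.04 to 5.43.

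Cp, the plasma ferroxidase, had the narrowest span of the 6 genes, 0.28 log2 units. The TgSREBP-1a arrays gave 11.18 and 10.92 and the TgSREBP-2 arrays 11.31 and 11.08, against 11.07 and 11.02 for their wild type controls; only TgSREBP-2 lay wholly above them. The differences were 0.01 ± 0.11 (interval -0.24 to 0.26) and 0.15 ± 0.11 (-0.10 to 0.40). Scap-/- arrays gave 10.82 and 11.00, against 11.00 and 11.02 in chow-fed wild type, a difference of -0.10 ± 0.11 (-0.35 to 0.15). For the 2 wild type pools, the differences of Cp, Tfrc and Fth1 were 0.03 ± 0.11, -0.15 ± 0.10 and -0.26 ± 0.12, none called. The second Fth1 probe set pointed the other way there too, at 0.25 ± 0.12, and was not called.

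Genes known to act on hepcidin were read from a list of 22, of which 18 were measured. In TgSREBP-1a 2 rose and 1 fell, with a list median of 0.17 beside -0.03 over all genes. Bmp6, the ligand by which iron loading raises hepcidin, gave 7.37 and 7.29 in TgSREBP-1a, against 6.01 and 6.24 in wild type on that diet (1.20 ± 0.09, 2.30-fold, adjusted p = 8.07e-06). TgSREBP-2 gave 6.01 and 5.97, so Bmp6 was 2.53-fold higher in TgSREBP-1a than in TgSREBP-2 (1.34 ± 0.09). A second Bmp6 probe set gave 0.49 against wild type (adjusted p = 0.00597, short of 1.5-fold) and 0.71 against TgSREBP-2, where it was called.

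Smad1, a transducer of the BMP signal, rose in TgSREBP-1a by 0.85 ± 0.21 (adjusted p = 0.0198), with arrays at 8.39 and 7.76 against 7.31 and 7.16 in wild type. Without TgSREBP-1a replicate 1 it was 0.53 (adjusted p = 0.124), and without the wild type replicates in turn its adjusted p was 0.0541 and 0.0905. Id2, a target of BMP signalling, fell by 0.59 ± 0.16 in TgSREBP-1a (adjusted p = 0.0327), with an adjusted p of 0.186 without wild type replicate 1 and 0.155 without TgSREBP-1a replicate 2. In the other comparisons with wild type and between the wild type pools, none of the 18 was called by limma, while 3 (TgSREBP-2), 1 (Scap-/-) and 6 (wild type pools) of them had an unadjusted p under 0.05. The share of all genes at that limit was not counted, so such counts, here and for the lists below, are no result of their own. Between the wild type pools 22.7% of all genes had even an adjusted p under 0.05 by limma. Between the transgenic pools Bmp6 was the 1 gene called of the 18. The medians were 0.00 in TgSREBP-2, 0.02 in Scap-/-, 0.14 between the transgenic pools and -0.13 between the wild type pools.

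The interleukin 6 and acute phase list had 25 of 26 genes measured. In TgSREBP-1a 2 rose and 11 fell, with a median of -0.55. Saa4, a serum amyloid A protein, gave 6.20 and 6.21 in TgSREBP-1a, against 8.36 and 8.06 in wild type (fell by 2.01 ± 0.14). Serpina3n, a protease inhibitor, fell by 1.89 ± 0.08, and the interleukin 1 receptor Il1r1 by 1.55 ± 0.15. Orm2, an orosomucoid of plasma, rose by 2.08 ± 0.08 on the same arrays.

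In TgSREBP-2 5 genes of that list rose and 2 fell, with a median of 0.10. Saa2 gave 13.05 and 13.10 in TgSREBP-2, against 11.96 and 11.81 in wild type (1.19 ± 0.12), and Saa3 rose by 1.30 ± 0.09. Orm2 rose by 1.93 ± 0.08 and Serpina3n fell by 0.98 ± 0.08. Set directly against TgSREBP-2, TgSREBP-1a had none of the 25 higher and 10 lower, with a median of -0.48, led by Saa2 (-2.56 ± 0.12), Saa4 (-1.97 ± 0.14), Saa3 (-1.84 ± 0.09) and the inter-alpha-trypsin inhibitor chain Itih4 (-1.79 ± 0.11). Hamp was the reverse, higher in TgSREBP-1a than in TgSREBP-2, as was Bmp6. In chow-fed wild type, where Hamp was highest, the pool mean of Bmp6 was 6.31, and in Scap-/- it was 6.21. Any link of Bmp6 or of the acute phase genes to Hamp was not tested.

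In Scap-/- livers 1 acute phase gene rose and none fell, with a median of 0.00. It was the neutrophil-attracting chemokine Cxcl1, at 7.88 and 8.04 in Scap-/- against 6.82 and 6.68 in chow-fed wild type (1.21 ± 0.19, adjusted p = 0.00588). Its call was lost without Scap-/- replicate 2 (adjusted p = 0.07) or without wild type replicate 2 (0.0893). Of the 25, 8 had an unadjusted p under 0.05 by limma. No serum amyloid or orosomucoid gene was called in those livers, where Lcn2 rose 5.79-fold by its brightest probe set. Saa2 gave 8.75 and 8.99 in Scap-/-, against 8.74 and 9.05 in chow-fed wild type. Orm2 gave 8.59 and 8.66, against 8.18 and 8.20, and Orm1 lay lower, at 10.35 and 10.57 against 10.92 and 11.03. Any link of these genes to Lcn2 was not tested. Between the wild type pools 9 of the 25 were higher on the high-protein diet and none lower, with a median of 0.51, led by Saa2 (2.99 ± 0.12), Orm2 (1.98 ± 0.08), Serpina3n (1.36 ± 0.08) and Il1r1 (1.12 ± 0.15).

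**Figure D4:**
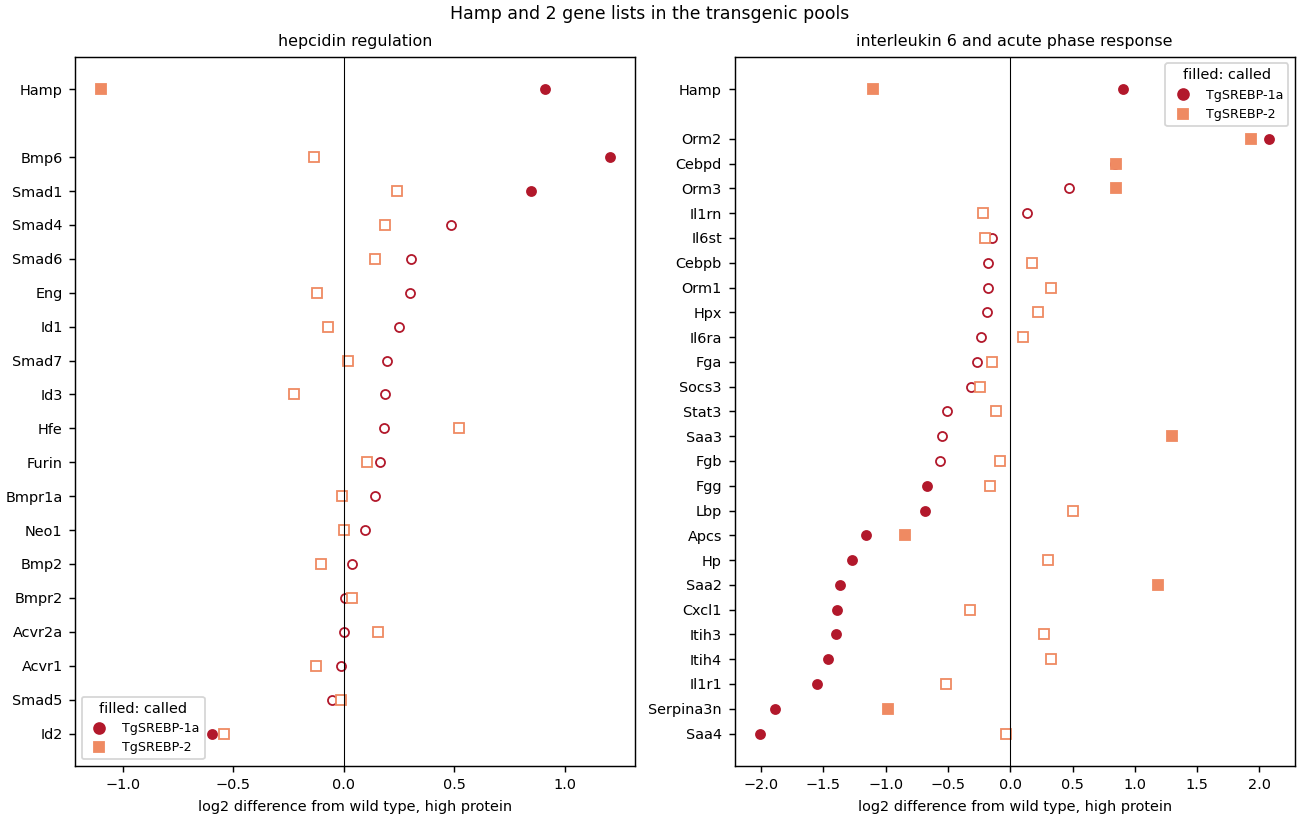
Log2 difference from wild type fed the high-protein diet (x axis) of Hamp, at the top, and of the 18 measured hepcidin regulation genes (left) and 25 interleukin 6 and acute phase genes (right), in TgSREBP-1a (circles) and TgSREBP-2 (squares), filled where called. In TgSREBP-1a Hamp stands at 0.91. Of the 18, Bmp6 (1.20) and Smad1 were called higher and Id2 lower, and of the 25, 2 were called higher and 11 lower. A second Bmp6 probe set, not drawn, gave 0.49 and was not called. In TgSREBP-2 Hamp stands at -1.10, with none of the 18 called and with 5 of the 25 called higher and 2 lower.

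Of the iron uptake, storage and export list, 11 of 19 genes were measured; ferroportin (Slc40a1) was not among them and is not analysed here. In TgSREBP-1a 3 fell and none rose, with a median of -0.19. Haptoglobin (Hp), which captures free hemoglobin and is an acute phase protein counted in that list too, gave 11.87 and 11.81 in TgSREBP-1a, against 13.15 and 13.07 in wild type (fell by 1.27 ± 0.07, 2.41-fold). Transferrin receptor 2 (Tfr2), the hepatocyte sensor of transferrin iron, gave 8.97 and 8.96, against 9.94 and 9.70 in wild type (fell by 0.85 ± 0.10, adjusted p = 0.00025). The divalent metal transporter Slc11a2 fell by 0.86 ± 0.09 (adjusted p = 0.000125), but its other probe set differed by -0.01.

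The same 3 genes were lower in TgSREBP-1a than in TgSREBP-2, with differences of -1.58 ± 0.07 for Hp, -1.01 ± 0.09 for Slc11a2 and -0.91 ± 0.10 for Tfr2, and a list median of -0.17. The other Slc11a2 probe set differed by -0.03 there and was not called. None of the 11 was called by limma in TgSREBP-2, in Scap-/- or between the wild type pools, with 2, 0 and 1 of them at an unadjusted p under 0.05 and medians of 0.07, -0.03 and 0.02. Of 16 genes of iron regulatory proteins and iron-sulfur clusters, 8 were measured and none was called by limma in any comparison. Those at an unadjusted p under 0.05 numbered 1 in each comparison with wild type, 2 between the transgenic pools and 3 between the wild type pools. The medians of these 8 lay between -0.19 and 0.02.

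Heme genes were read from a list of 15, with 12 measured and the list medians between -0.14 and 0.07. In Scap-/- livers Alas1, the rate-limiting enzyme of heme synthesis in liver, gave 11.25 and 11.38, against 10.42 and 10.54 in chow-fed wild type (0.84 ± 0.09, 1.78-fold, adjusted p = 0.000397). It was the 1 gene of the 12 called there. In TgSREBP-1a the 1 called was Alas2, the form of that enzyme in red cell precursors and counted among the red cell markers too, which fell by 0.62 ± 0.09 (adjusted p = 0.000811) and was short of 1.5-fold at -0.52 without TgSREBP-1a replicate 1 and at -0.58 without wild type replicate 2. Alas2 was also lower in TgSREBP-1a than in TgSREBP-2 (-0.79 ± 0.09).

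In TgSREBP-2 the heme gene called was the porphyrin exporter Abcg2 (0.73 ± 0.17, adjusted p = 0.0327), with an adjusted p of 0.111 and 0.124 without either wild type replicate and 0.257 without TgSREBP-2 replicate 1. Between the wild type pools Alas2 (-0.94 ± 0.09), Alad (-0.73 ± 0.13) and Urod (-0.60 ± 0.09), enzymes of heme synthesis, were lower on the high-protein diet, where Hmox1 was higher. Alad was not called without chow-fed replicate 2 (-0.67, adjusted p = 0.0547) or without high-protein replicate 2 (-0.54), and Urod was short of 1.5-fold without either (-0.55 and -0.53). A second Urod probe set gave 0.31 and was not called.

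Hmox1 is a target of the oxidative stress factor NRF2, and 16 of 17 genes of an NRF2 list were measured. In TgSREBP-1a 3 rose and 2 fell, with a median of 0.04. Gstm3, a glutathione transferase, gave 11.37 and 11.18 in TgSREBP-1a, against 9.20 and 9.08 in wild type (2.14 ± 0.10). Nfe2l2, which encodes NRF2 itself, rose by 1.44 ± 0.11 and Gstm1 by 0.98 ± 0.07, though another Gstm1 probe set gave 0.03. Srxn1 (sulfiredoxin) fell by 0.88 ± 0.09 on its brightest probe set and was called higher on another, by 1.20, so its direction is not settled.

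None of the 16 was called by limma in TgSREBP-2, with 5 at an unadjusted p under 0.05 and a median of 0.02. In Scap-/- livers Gstm3 rose by 0.95 ± 0.10 and was the 1 gene called, with a median of 0.18. Between the transgenic pools 3 were higher and 2 lower in TgSREBP-1a, with a median of 0.05, namely Gstm3 (2.06 ± 0.10), Nfe2l2 (1.13 ± 0.11), Gstm1 (0.94 ± 0.07), Gclm (-1.16 ± 0.11) and Srxn1. The other Gstm1 probe set gave 0.23 there and was not called. Another Srxn1 probe set was called higher in that comparison, by 0.89, so the direction of Srxn1 is not settled there either. Wild type fed the high-protein diet had 4 lower than chow-fed wild type and none higher, namely Ephx1 (-1.23 ± 0.08), Nfe2l2 (-0.93 ± 0.11), Gstm3 (-0.89 ± 0.10) and Gstm1 (-0.63 ± 0.07), with a median of -0.06. Other probe sets of Gstm3 and Gstm1 gave -0.39 (adjusted p = 0.145) and 0.19 in that comparison and were not called. Hmox1 was higher there.

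Markers of other cell types were read beside these results. Hepatocyte markers summed to linear signals of 34126 to 35953 (TgSREBP-1a) and 33530 to 34241 (TgSREBP-2) against 33705 to 34052 in their wild type pool. In Scap-/- the sums were 32806 to 34345, below the 34880 to 35158 of chow-fed wild type. These sums are carried by very bright genes such as Alb, so they do not test whether other tissue was present. Of 5 measured, 1 rose (Tat) and 1 fell (Ttr) in TgSREBP-1a. None of 8 neutrophil markers was called by limma in any comparison, and at most 2 had an unadjusted p under 0.05. Their sums were 777 to 873 (TgSREBP-1a) and 789 to 865 (TgSREBP-2) against 819 to 903 in their wild type pool, and 736 to 817 in Scap-/- against 757 to 797 in chow-fed wild type. These sums overlapped those of wild type in all 3 engineered pools. Camp and Elane, with linear pool means of 226 to 246 and 147 to 174, made up a large part of them. The sums could therefore hide a change in the dimmer markers. Some of the markers were dim, such as Ctsg with pool means of 3.68 to 3.98. Which cells the Lcn2 RNA came from was not tested.

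Some macrophage markers were called higher in the transgenic pools. Of 9 measured of 11, 5 rose in TgSREBP-1a and 3 in TgSREBP-2, led by Cd5l (1.53 ± 0.16 and 1.44 ± 0.16), and their sums were 4125 to 4350 and 3324 to 3577 against 2494 to 2556 in wild type. In TgSREBP-2 the others called were C1qb and Lyz2, and without TgSREBP-2 replicate 1 both lost their call, at 0.57 and 0.54, as did Lyz2 without wild type replicate 2 (0.58, adjusted p = 0.0996). Lyz2 also lost its call in TgSREBP-1a without replicate 1 of that pool (0.54). Other probe sets of C1qb and Lyz2 were not called in either transgenic pool. Of these 9, 4 were lower in wild type fed the high-protein diet than in chow-fed wild type, namely C1qb, Lyz2, Cd5l and Marco. The sums there were 2494 to 2556 against 3712 to 3989. Other probe sets of C1qb and Lyz2 gave -0.29 and -0.31 and were not called. Cd5l lost its call without chow-fed replicate 2 (-0.76). Marco lost its call without chow-fed replicate 1 (-0.85) or 2 (-0.56), or without high-protein replicate 1 (-0.51). None of the 9 was called by limma in Scap-/-, with 2 at an unadjusted p under 0.05. The sums were 3614 to 3687 in Scap-/- against 3712 to 3989 in chow-fed wild type. Of 4 red cell markers of 8, 1 (Hba-a1, a globin) rose and 1 (Alas2) fell in TgSREBP-1a, and Hba-a1 rose in TgSREBP-2. Red cell sums were 4237 to 4412 (TgSREBP-1a) and 4647 to 4690 (TgSREBP-2), against 2851 to 3086 in their wild type pool. They were carried by Hba-a1, with linear pool means of 4013, 4208 and 2530 in that order. The median log2 differences of the red cell list were -0.25 in TgSREBP-1a and 0.08 in TgSREBP-2.

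Exocrine pancreas genes, which liver does not normally express, also differed between pools. All 6 measured of 10 fell in TgSREBP-1a and in Scap-/-, and 2 rose in TgSREBP-2. Their sums were 1119 to 1137 (TgSREBP-1a) and 19685 to 19805 (TgSREBP-2), against 14637 to 14897 in their wild type pool, and 1599 to 1648 in Scap-/- against 7249 to 7411 in chow-fed wild type. Between the wild type pools 5 of the 6 were higher on the high-protein diet. A further Reg1 probe set was not called in any comparison in which Reg1 was. In the remaining marker lists, Lyve1 and Cdh5 of 7 endothelial markers and Ighm of 9 lymphocyte markers rose in TgSREBP-1a, Ighm fell in Scap-/-, Car3 of 3 adipocyte markers fell in TgSREBP-1a, and no stellate cell or cholangiocyte marker was called against wild type. Ighm was read from its brightest probe set; of 15 others, 1 was called higher in TgSREBP-1a and 0 in either direction in Scap-/-. Deposited log2 values hold no zeros, so no marker is listed at 0. The part of any of these markers in the Hamp and Lcn2 results was not tested.

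The genes nearest in pattern to Hamp and to Lcn2 were taken by their pool means. Among 498 genes whose 5 pool means spanned at least 1 log2 unit, those most like Hamp by Pearson r were Gstt1 (0.913), Actg1 (0.912), Ctse (0.895), Igha (0.886) and Marco (0.886). Those most like Lcn2 were Snhg6 (0.844), Gas5 (0.818), Ugdh (0.805), Oat (0.790) and Apoa4 (0.782). Among the iron genes themselves, Hamp correlated with Hmox1 at -0.855, with Cp at -0.786 and with Lcn2 at -0.496. These are descriptions over 5 pools that fall into 2 sets of arrays, with no test.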

How the data were processed

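Per the labels' protocols, total RNA of each liver was pooled by group, with 2 arrays per pool. The authors deposited 1 table of log2 signals over 12488 probe sets. The tool named per the submitters' processing notes is RMA, with no version in these sources, and the design text of the series instead names Microarray Suite 5.0, a method that gives linear signals. Deposited values ran from 2.68 to 14.03 and array medians were nearly equal, so they were used as normalized log2 signals, and no detection calls were used.

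Gene names came from the platform annotation and were brought up to date by RefSeq gene IDs (10817 matched); 66 controls, 396 with several symbols and 1193 with none were left out. For 2073 of 8251 genes there was a choice of probe set, and the one of highest mean was taken. The 10 arrays were fitted together in limma 3.58.1 (R 4.3.3, lmFit and eBayes, 1 coefficient per group), with Benjamini-Hochberg adjustment over all 8251 genes. The fit was also run on simulated data with independent errors and 1 spread per gene in all groups. Those data held no error between pools and no deviation shared by arrays, so they do not test the effect of either. The fit shares 1 variance per gene over groups, although duplicates differed more in the transgenic set. The number of arrays limits the precision.

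Alternatives were other normalizations, a filter on dim genes, a linear offset, array weights, the mean of a gene's probe sets, blocks for the replicate number and leaving out each array. Same-numbered arrays deviated together within the transgenic set (r = 0.46, 0.60 and 0.61) and the Scap set (0.30), not between sets (-0.12 to -0.48), so a block for the number within each set was run as an alternative, added after the data were seen. Printed values come from the fit without a block, since the labels do not say what the number marks.

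Members and gene lists were chosen with earlier results of these data known. Named are all members, up to 4 called genes per list and comparison with the largest absolute difference, and the 5 genes most like Hamp and Lcn2; other genes named were chosen after their values were seen. Promoter windows are from RefSeq, GRCm38.p6.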

Additional observations from a re-analysis of the deposited data

Results flagged for a closer look

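Hamp differed between the transgenic livers by the direct test of that difference. TgSREBP-1a exceeded TgSREBP-2 by 2.01 ± 0.08 log2 units, 4.02-fold (limma, adjusted p = 1.09e-07), with all 4 array pairs in that direction. Each pool stood on the opposite side of their shared wild type pool, at 0.91 in TgSREBP-1a and -1.10 in TgSREBP-2. Without 1 array at a time the difference ran from 1.91 to 2.10.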

How the results depend on the processing

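The 9 called differences of the iron genes were recomputed in 135 runs over 15 settings; 134 kept direction and call, none reversed, and 1 was no longer called. That 1 is Lcn2 in TgSREBP-1a with a gene's probe sets averaged (0.35, adjusted p = 0.0305), which leaves 1 iron gene called in that comparison. No setting read Lcn2 from its second probe set alone, on which none of its differences was called. Hamp and Hmox1 have 1 probe set each, so averaging could not change their differences. Leaving out 1 array at a time, the iron genes called stayed at 2, 2, 1 and 3 in TgSREBP-1a, in TgSREBP-2, in Scap-/- and between the wild type pools. Between the transgenic pools they ranged from 1 to 2, being 2 without TgSREBP-2 replicate 1, where Hmox1 was called (-0.66, adjusted p = 0.00455), and without TgSREBP-2 replicate 2, where Lcn2 was (-0.62, adjusted p = 0.0183). Genes called over the whole array ranged from 564 to 734, 143 to 255, 100 to 116, 411 to 479 and 341 to 593 in the 5 comparisons. With the replicate block within each set they numbered 618, 229, 150, 442 and 479, and with the replicate block over all arrays 614, 218, 139, 432 and 471; neither block changed a call of an iron gene.

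Reversals occurred in 18 of 315 runs of the 21 differences that were not called, all near 0. In TgSREBP-1a Tfrc was 0.0051 with probe sets averaged and Cp was -0.034 with cyclic loess. In TgSREBP-2 Tfrc was -0.11 with quantile normalization repeated and -0.051 with cyclic loess, and Hmox1 was -0.11 and -0.034. Between the wild type pools Tfrc was 0.030 with quantile normalization repeated. Leaving out 1 array, Tfrc ranged from -0.21 to 0.035 and Cp from -0.12 to 0.13 in TgSREBP-1a, Tfrc from -0.024 to 0.075 and Hmox1 from -0.11 to 0.18 in TgSREBP-2, Fth1 from -0.020 to 0.054 in Scap-/-, and Tfrc from -0.24 to 0.0092 and Fth1 from -0.10 to 0.16 between the transgenic pools. The causes were not tested. Among acute phase genes, 12 and not 9 were higher on the high-protein diet than on chow with cyclic loess, with quantile normalization repeated or without high-protein replicate 2; 8 were higher and 2 lower without high-protein replicate 1.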
